A study of Mus musculus with 8 samples.

Results

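The left ventricle of MRL/MpJ mice was followed through 4 arrays of an 8-array study: 1 from untreated hearts and 1 each from hearts taken 3, 30 and 60 days after ligation of the left anterior descending artery (LAD), a coronary vessel. These 4 arrays were chosen by the strain on their labels, and each day was set against the untreated MRL/MpJ array. MRL/MpJ is an inbred strain whose punched ear holes close well, and LAD ligation cuts off blood to the wall of the left ventricle, which infarcts. The other 4 arrays are C57BL/6, a common inbred strain, at the same times, and they are used here only beside the MRL/MpJ values.

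All mice were labelled male and 2 to 4 months old, and all RNA was total RNA of the left ventricle extracted with Trizol. The labels do not say whether that age was the age at ligation or at harvest, how many animals an array holds, or whether the infarct, its border or the remote wall was sampled. The comparison hearts were untreated and not sham-operated, so the operation itself is part of every difference. With 1 array per time point there was no replicate and no test. Every value below describes these arrays, and a 2-fold limit is a limit of size only.

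A heart that loses part of its wall goes through an inflammatory stage with clearance of dead muscle, then a stage in which activated fibroblasts lay down collagen and wound proteins, and then a long maturation of the scar. The surviving muscle meanwhile takes up a fetal and stress programme, with natriuretic peptides and the slow beta myosin heavy chain, and commonly lowers its genes for burning fatty acids. Adult mammalian ventricle heals by scar.

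The deposited values were signal intensities, each array scaled as a whole by the authors, with a trimmed mean between 247.2 and 248.4 in all 8 arrays. The median signal of the 4 MRL/MpJ arrays was 115.6 untreated, 129.6 on day 3, 112.8 on day 30 and 115.4 on day 60. Changes are differences of log2(signal + 28.6), where 28.6 is the 20th percentile of all values. They are given for 8208 genes with a signal of 121 or more (the overall median) in 2 or more of the 8 arrays, and a gene's value is that of its brightest probe set. All 10 ventricular muscle markers were bright in every MRL/MpJ array, with signals from 12351 to 38118. Their summed signal was 223622 untreated, 227744 on day 3, 266860 on day 30 and 192333 on day 60. In bulk tissue, fewer cells of a type and less RNA per cell cannot be told apart. Of the markers of T cells, 6 of 7 on the array stayed below 121 in all 4 arrays, as did 7 of 8 skeletal muscle markers.

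The day 3 array stood farthest from the untreated one by the number of genes that were higher. On day 3, 411 of 8208 genes (5.01%) lay at least 2-fold above untreated and 218 (2.66%) at least 2-fold below. On day 30 these numbers were 254 (3.09%) above and 207 (2.52%) below, and on day 60 they were 374 (4.56%) above and 234 (2.85%) below. The median change over all genes was 0.05 on day 3, -0.06 on day 30 and -0.07 on day 60, so the arrays were nearly centred on each other. At least 4-fold differences were fewer: 62 genes above and 19 below on day 3, 36 above and 14 below on day 30, and 63 above and 15 below on day 60. Between successive arrays, day 30 lay at least 2-fold above day 3 for 166 genes (2.02%) and below it for 415 (5.06%), and day 60 lay above day 30 for 173 (2.11%) and below it for 119 (1.45%).

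Genes with several probe sets give the only internal check that these arrays hold, since each probe set reads another stretch of the transcript from the same RNA. Among 2730 such genes, all probe sets lay at least 2-fold above untreated for 45 on day 3 (1.65%), 25 on day 30 (0.916%) and 54 on day 60 (1.98%). All lay at least 2-fold below for 11 on day 3 (0.403%), 5 on day 30 (0.183%) and 8 on day 60 (0.293%). For day 30 against day 3 the counts were 1 above (0.0366%) and 24 below (0.879%), and for day 60 against day 30 they were 11 above (0.403%) and 0 below (0%).

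Where the brightest probe set was at least 2-fold above untreated on day 3, 132 of 145 other probe sets of the same genes pointed the same way (91.0%) and 71 passed 2-fold themselves. Where it was at least 2-fold below, 55 of 70 pointed the same way and 18 passed. On day 60 the same counts were 158 of 166 with 84 passing among the higher genes, and 47 of 57 with 11 passing among the lower ones. On day 30 they were 70 of 80 with 32 passing, and 38 of 53 with 7 passing. Over all 3975 such pairs on day 3, without regard to size, 64.9% pointed the same way. Higher signals after ligation were repeated by a second probe set more often than lower ones on each of the 3 days. Probe sets of 1 gene share their RNA sample and are no replicate of the condition.

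**Figure D1:**
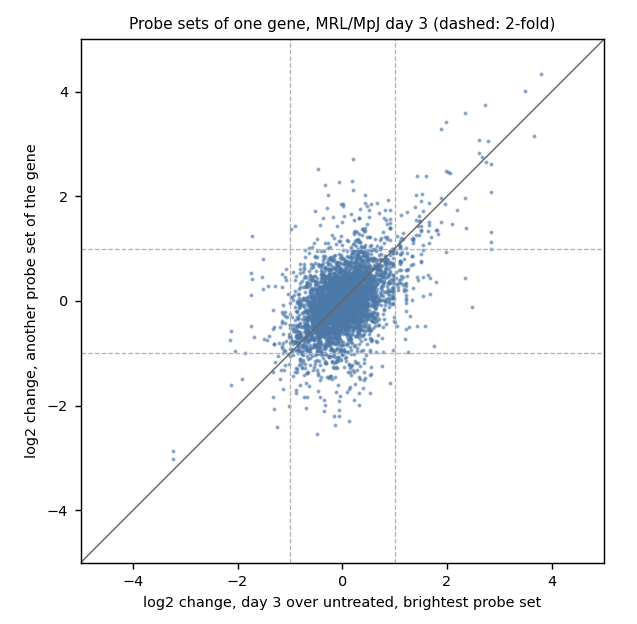
Each point is a second probe set of a gene on day 3: the horizontal axis is the log2 change from untreated of the gene's brightest probe set and the vertical axis that of the other one, with the line of equality and dashed lines at 2-fold. Of the 145 points right of the 2-fold line, 132 lie above 0, and of the 70 points left of it, 55 lie below 0.

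Sorted by the days on which they passed 2-fold, the largest pattern of higher genes was the one held through all 3 days. The largest patterns of lower genes were those of 1 day. With the 2-day patterns given below, the patterns covered 320 of the 619 genes higher on any day and 311 of the 549 lower. The rest lay between 1.5-fold and 2-fold on at least 1 day and are in no pattern. The held pattern had 128 genes above untreated on days 3, 30 and 60, and 15 genes below. Genes at least 2-fold above on day 3 and under 1.5-fold on days 30 and 60 numbered 75, and those below numbered 77. Late genes, under 1.5-fold on day 3 and past 2-fold on days 30 and 60, numbered 22 above and 25 below. Genes past 2-fold on day 30 alone numbered 17 above and 87 below, and on day 60 alone 36 above and 79 below. All 3 comparisons use the untreated array, so a gene read low or high there alone enters the held pattern, and single-day patterns rest on 1 array each. Sarcolipin and the atrial light chain genes Myl7 and Myl4 were below untreated on day 3 and above it later, and are counted both among the early lower and the late higher genes.

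Probe sets separated these patterns. Of the 33 held higher genes with several probe sets, 23 had all of them at least 1.5-fold above on the 3 days. The share was 8 of 18 for the early higher genes, 6 of 14 for genes higher on day 60 alone, and 1 of 4 for late higher genes. Among lower genes it was 3 of 4 held, 5 of 15 early, 0 of 5 late, 3 of 11 on day 30 alone and 5 of 11 on day 60 alone. Patterns of days 3 and 60 without day 30 were added after the values were seen: 32 genes were higher in that way, 5 of the 12 with several probe sets in agreement, and 17 were lower, 5 of 7 in agreement. Days 3 and 30 without day 60 gave 10 higher genes and 11 lower ones, and 0 of their genes with several probe sets agreed (1 higher and 2 lower). Of the 619 genes past 2-fold above untreated on any day, 301 stood highest on day 3, 97 on day 30 and 221 on day 60.

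**Figure D2:**
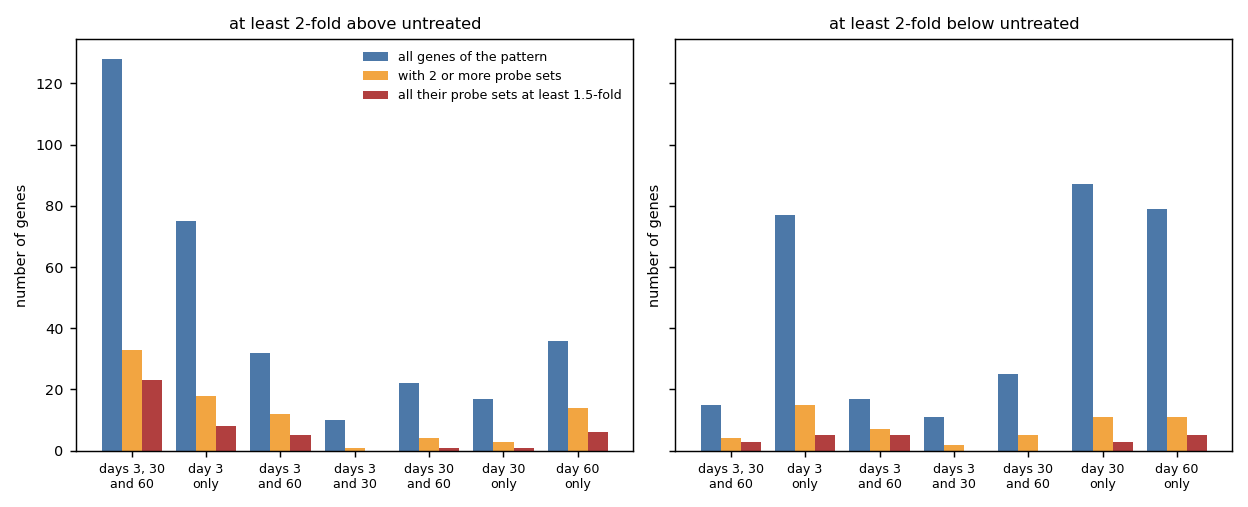
Number of genes by the days on which they lay at least 2-fold above (left) or below (right) the untreated MRL/MpJ array; blue bars count all genes, orange bars those with 2 or more probe sets, and red bars those whose probe sets all reached 1.5-fold. The pattern of days 3, 30 and 60 is the tallest on the left (128 genes, 23 of 33 in agreement), while the tallest patterns on the right are those of single days.

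Matrix genes were high from day 3 on. Col1a1 and Col1a2, the chains of type I collagen that make up most of scar tissue, were at their highest on day 3 and remained well above untreated through day 60. Col1a1 had a signal of 485.5 in untreated hearts, 7072 on day 3, 3103 on day 30 and 2151 on day 60, which is a log2 change of 3.79, 2.61 and 2.08. Its other probe set gave changes up to 4.33, 2.66 and 2.41 on these days. Col1a2 had 889.7 untreated, 10356 on day 3, 4404 on day 30 and 4542 on day 60, with its 2 probe sets at 3.5 and 4.01 on day 3. Every ligated array lay above the untreated one for both genes, and the day 3 array lay more than 1 log2 unit above the later ones on their brightest probe sets.

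Col5a2, a chain of the type V collagen that starts fibrils, had 505.2, 3648, 1260 and 1641 from untreated to day 60. Lox, the enzyme that cross-links collagen and elastin, had 128.9, 1019, 434.8 and 425.9. Over the 19 measured genes of fibrillar collagens and their processing, 10 lay at least 2-fold above untreated on day 3, 7 on day 30 and 8 on day 60, and 0 at least 2-fold below on any day. Among all genes 5.01%, 3.09% and 4.56% lay above on these days. The list's median change was 1.18, 0.69 and 0.86 on the 3 days. From day 3 to day 30, 8 of the 19 lay at least 2-fold lower and 0 higher, against 5.06% and 2.02% of all genes.

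Other structural matrix proteins followed the same course with a second high on day 60. Of 31 measured genes, 26 lay at least 2-fold above untreated on day 3, 12 on day 30 and 20 on day 60, with medians of 1.61, 0.88 and 1.28. The shares of all genes above were 5.01%, 3.09% and 4.56%. Fn1, the fibronectin of the provisional wound matrix, had signals of 442 untreated, 3679 on day 3, 1466 on day 30 and 2327 on day 60. Fmod, fibromodulin, a small proteoglycan that binds collagen fibrils, had 60.2, 606.4, 212.3 and 461.2, and its 6 probe sets all lay above untreated, by 1.0 to 2.84 on day 3 and by 1.34 to 2.94 on day 60. Ltbp2, which binds microfibrils, had 55.3, 600, 298.9 and 630.1.

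Elastin had the same order of days, with a larger drop from day 3 to day 30 than the list's median of -0.84. Eln had 292.1 untreated, 1943 on day 3, 480.8 on day 30 and 625.4 on day 60, and both of its probe sets lay at least 2-fold lower on day 30 than on day 3. Its 2 probe sets were 2.62 and 3.07 above untreated on day 3, and -0.16 and 0.67 on day 30. Mfap4, a microfibril-associated glycoprotein read by 1 probe set, had 11.4 untreated, 943.1 on day 3, 39.7 on day 30 and 653.1 on day 60. Its log2 change was 4.60, 0.77 and 4.09 on the 3 days, so day 30 stood well below days 3 and 60.

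Matricellular proteins, which sit in the matrix and signal to cells more than they bear load, had the largest median of the 23 lists other than cell type markers. All 12 measured genes lay above untreated on each of the 3 days, 10 of them at least 2-fold on day 3, 6 on day 30 and 11 on day 60. Among all genes 5.01%, 3.09% and 4.56% lay at least 2-fold above. The list's median was 2.33, 1.44 and 2.34, against 0.05, -0.06 and -0.07 over all genes. Postn, periostin, made by activated fibroblasts, had 259.1 untreated, 6776 on day 3, 3694 on day 30 and 3285 on day 60, changes of 4.56, 3.69 and 3.53.

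Thrombospondins differed in their order. Thbs1, with 2 probe sets, had 99.8, 633.6, 192.6 and 823 from untreated to day 60, so that it was highest on day 60 and day 30 stood below both other days. Thbs2 had 170.6, 673.4, 241.8 and 463.6 and was highest on day 3, while Thbs4, known from pressure-overloaded hearts, had 72, 626.9, 1030 and 536.2 and was highest on day 30. Comp, cartilage oligomeric matrix protein of the same family, had 109.7, 856.6, 576.1 and 1846 and was highest on day 60. Tenascin-C (Tnc), a protein of early wounds, was highest on day 3 and lower on each later day, with 26.2, 379, 187.9 and 96.9.

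Among proteases and their inhibitors the inhibitor Timp1 changed most, with 75.4 untreated, 881.7 on day 3, 855.4 on day 30 and 571.5 on day 60. Timp3, which is bound to the matrix, was highest on day 60: 1031, 1898, 1269 and 3740, with all 4 probe sets 1.20 to 2.00 above untreated on day 60. Mmp14, a membrane-bound collagenase that activates Mmp2, belonged to the early higher genes, with 230, 581.1, 343.8 and 269.5, and both its probe sets were at least 1.24 above on day 3. Of the 21 measured genes of this group, 8 lay at least 2-fold above untreated on day 3, 5 on day 30 and 7 on day 60, and 1 lay at least 2-fold below on day 3. Among all genes 5.01%, 3.09% and 4.56% lay above on these days, and 2.66% lay below on day 3, which is near 1 of 21.

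**Figure D3:**
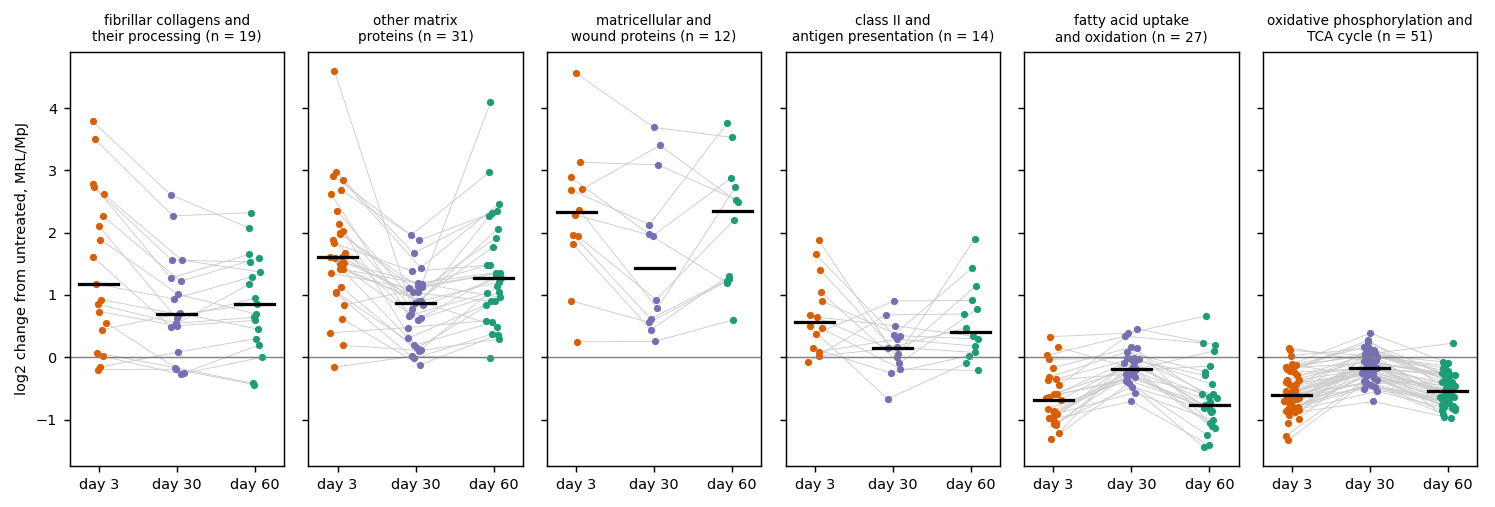
Log2 change from untreated of each measured gene (points, joined by gene across days 3, 30 and 60) in 6 gene lists, with the list median as a black bar. The 3 matrix lists are highest on day 3 or 60 and lowest on day 30 (medians of the other matrix proteins 1.61, 0.88 and 1.28), and the 2 metabolic lists show the mirror image (fatty acid list -0.68, -0.20 and -0.76).

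Secreted regulators of growth and Wnt signalling included the largest change from untreated over all genes. Sfrp2, a secreted Wnt modulator, had 51.3 untreated, 3143 on day 3, 629.7 on day 30 and 2085 on day 60, changes of 5.31, 3.04 and 4.73. Ptn, the growth factor pleiotrophin, had 16.8, 546.5, 218.7 and 241.3, and its lower probe set still lay 3.16 above untreated on day 3. Inhbb, the beta B subunit of inhibin and activin, had 50.9, 414.6, 233.8 and 348.7, but its second probe set gave -0.12 on day 3 and 0.10 on day 30. Of the 35 measured genes of this group, 12, 6 and 14 lay at least 2-fold above untreated on days 3, 30 and 60, and 0, 0 and 3 at least 2-fold below, beside 5.01%, 3.09% and 4.56% of all genes above and 2.66%, 2.52% and 2.85% below.

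Fstl1 and Dkk3 had all probe sets past 2-fold on all 3 days, with different courses. Fstl1, a follistatin-like secreted glycoprotein made by stressed myocardium, had 425.7 untreated, 3032 on day 3, 2932 on day 30 and 3070 on day 60, and both probe sets lay 2.24 to 2.77 above on all 3 days, at nearly the same level. Dkk3, a secreted glycoprotein of the Dickkopf family, had 60.9, 379.3, 504.2 and 893.6, changes of 2.19, 2.57 and 3.37, higher on each later array, with its other probe set at 1.74, 1.39 and 2.34. Dkk3 is also on the list of atrial markers.

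Fibroblast markers were raised with the matrix genes, though not all of them were highest on day 3. All 8 lay above untreated on each day, at least 2-fold for 6, 5 and 6 of them on days 3, 30 and 60, and their summed signal was 10538 untreated, 53546 on day 3, 28531 on day 30 and 28298 on day 60. Since 3 of the 8 are collagen genes, and Dcn and Lum are on the list of other matrix proteins, this list is not separate from the matrix lists. The markers outside those lists differed in their order. Dpt changed by 1.7, 1.21 and 0.90 on days 3, 30 and 60, Pdgfra by 0.27, 0.38 and 0.43, and Tcf21 by 0.93, 0.44 and 1.17. The smooth muscle and myofibroblast markers summed to 7164, 9890, 11048 and 12635, with 1, 2 and 4 of 7 measured genes at least 2-fold above. Among all genes 5.01%, 3.09% and 4.56% lay at least 2-fold above on days 3, 30 and 60. The part of changed cell numbers in the matrix values was not tested.

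Of the 75 genes high on day 3 alone, 18 had several probe sets and 8 of these had all of them at least 1.5-fold above untreated. With the mean of both untreated arrays as baseline, 27 of the 75 kept this pattern. Nrep, a neuronal regeneration related protein gene that is also expressed in wound fibroblasts, had 252 untreated, 754.6 on day 3, 317.4 on day 30 and 366.7 on day 60. Itm2a, a membrane protein gene, had 413, 1125, 414.5 and 539.5. Both genes had both probe sets at least 1.39 above untreated on day 3 and at most 0.50 on days 30 and 60. Armcx2 had 577.9, 1252, 415.7 and 582.1, with 3 probe sets 0.59 to 1.08 above on day 3. Fbxo36, an F-box protein gene, had 292.7, 734.6, 300.8 and 337.3, but its probe sets gave -1.13 and 0.04 on day 30.

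Macrophage genes were high from day 3 and still raised on day 60. All 17 measured macrophage markers lay above untreated on day 3, with 10 at least 2-fold above, against 8 on day 30 and 10 on day 60. The shares of all genes at least 2-fold above were 5.01%, 3.09% and 4.56%. The summed signal of the markers over 20 genes was 6080 untreated, 15800 on day 3, 11563 on day 30 and 13764 on day 60. Gpnmb, a glycoprotein of lipid-laden macrophages, had 15.1, 376.2, 71.1 and 117.3. Ctss, the lysosomal protease cathepsin S, had 244.1, 1641, 729.2 and 894.7. Adgre1, which encodes the F4/80 antigen, had 233.9, 629.2, 674.1 and 543.3 and showed no single early high.

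Complement genes were raised beside the macrophage markers, but C1qa, C1qb and C1qc are on both lists. All 9 measured genes lay above untreated on days 3 and 60, with medians of 1.04, 0.95 and 1.16 on days 3, 30 and 60. Serping1, the C1 inhibitor, had 719.8, 2765, 2127 and 2836, and C1qa, a chain of C1q that macrophages make, had 729, 1867, 1489 and 1801. C1s1, a protease of the C1 complex, was highest on day 60, with 85.4, 276, 261.2 and 587.7. Of 13 measured chemokine genes 1, 1 and 4 lay at least 2-fold above untreated on days 3, 30 and 60. Among all genes 5.01%, 3.09% and 4.56% did. The gene above on day 3 was Ccl8 (251.1 untreated, 947 on day 3, 499.8 on day 30 and 731.1 on day 60). Ccl6 was the gene above on day 30, where it was highest, with 79.8, 168.2, 445.9 and 327.4. Its other probe set gave 0.90 on day 30. On day 60 the brightest probe sets of Ccl6, Ccl8, Ccl9 and Cxcl13 lay above by 1.72, 1.44, 1.29 and 1.11.

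Neutrophil markers summed to 739.9 untreated, 871.6 on day 3, 723.6 on day 30 and 579.8 on day 60, and 4 of the 9 on the array stayed below 121 in all 4 arrays. Among acute phase genes, Serpina3n, an antiprotease, had 34.8, 318.7, 754.6 and 499.1 and was highest on day 30. Socs3, the feedback inhibitor of interleukin 6 signalling, had 14.2, 96.8, 158.2 and 169.9, and both of its probe sets lay 0.97 to 2.21 above untreated on all 3 days. The median of the 15 measured genes was 0.29, 0.00 and 0.27, with 2, 3 and 4 at least 2-fold above and 1, 1 and 1 below. Among all genes 5.01%, 3.09% and 4.56% lay above and 2.66%, 2.52% and 2.85% below. The gene below was S100a9, also a neutrophil marker, on days 3 and 30 (-1.7 and -1.41), and Tnf on day 60 (-1.92).

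Class II genes, whose products show peptides to helper T cells, were high on days 3 and 60 and near untreated on day 30. H2-Aa had 271.6 untreated, 1077 on day 3, 271.8 on day 30 and 1095 on day 60, and its 2 probe sets lay 1.88 and 1.96 above on day 3, 0.00 and 0.54 on day 30, and 1.90 and 1.56 on day 60. H2-Ab1 had 149.6, 532.5, 200.2 and 452.1, with 3 probe sets 1.11 to 1.87 above on day 3 and 0.63 to 1.43 above on day 60. Cd74, the invariant chain, had 409.6, 1126, 426.1 and 945.8. In all 3 genes the untreated and the day 30 array were the lower pair. The pattern was not that of the whole list. Of 14 genes of class II and antigen presentation 4, 0 and 3 lay at least 2-fold above on days 3, 30 and 60, beside 5.01%, 3.09% and 4.56% of all genes. Tap1, Tap2 and Tapbp, of the class I peptide loading machinery, changed by at most 0.46 on their brightest probe sets.

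The untreated MRL/MpJ signal was low for these genes beside C57BL/6. Untreated C57BL/6 hearts gave 1393 for H2-Aa, and with the mean of both untreated arrays as baseline H2-Aa, H2-Ab1 and Cd74 no longer passed 2-fold on days 3 and 60. The course over the 3 ligated MRL/MpJ arrays does not use a baseline: on both probe sets of H2-Aa, day 30 lay at least 2-fold below day 3.

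Antibody genes were highest on the day 60 array. Jchain, which joins antibody units, had 41.5 untreated, 100.1 on day 3, 49.6 on day 30 and 569.3 on day 60. Ighm, the heavy chain of IgM, had 190.7, 325.8, 273.7 and 996.4, and 4 of its 5 probe sets lay 1.53 to 2.5 above untreated on day 60, the other at 0.02. The membrane markers of B cells did not follow: Cd79a had 140, 134.4, 126.7 and 91, Ms4a1 (CD20) had 80, 153.8, 93.6 and 85.4, and Cd79b stayed below 121 throughout. Each antibody signal on day 60 rests on 1 array.

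Interferon-stimulated genes split by member. Ifi27l2a was a late gene with 85.4 untreated, 138.8 on day 3, 885.4 on day 30 and 915 on day 60. Ifit3 had 48.3, 235.5, 158.8 and 194.4 and was above untreated on all 3 days, and Oas1a, the sensor of double-stranded RNA, was above on day 60 alone with 62.2, 100.8, 66.6 and 264. Over the 18 measured genes 2, 3 and 3 lay at least 2-fold above on days 3, 30 and 60, beside 5.01%, 3.09% and 4.56% of all genes.

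**Figure D4:**
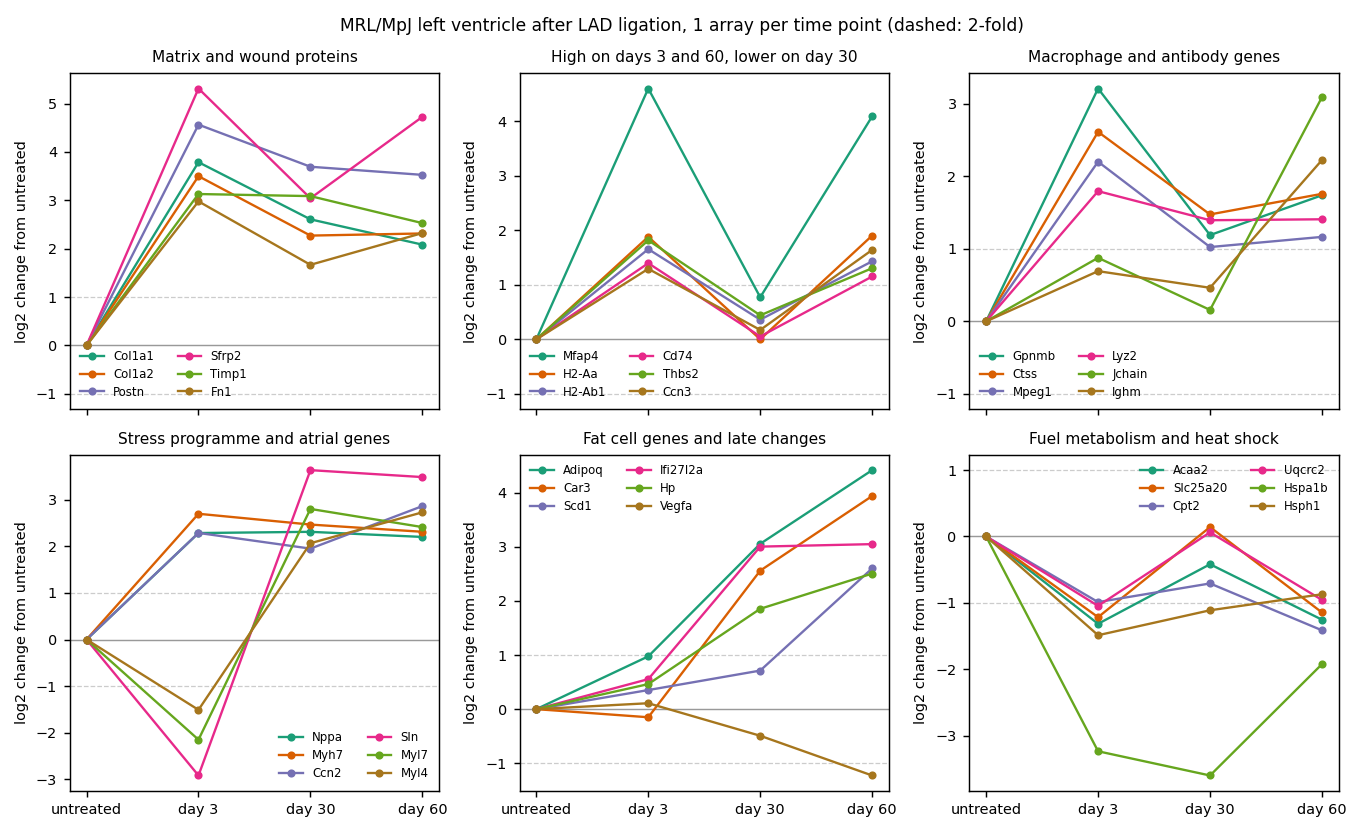
Log2 change from the untreated MRL/MpJ array (vertical axis) on days 3, 30 and 60, 1 line per gene and 1 array per point, with dashed lines at 2-fold. Matrix genes are highest on day 3 (Col1a1 3.79), and class II genes return to near the untreated level on day 30 (H2-Aa 0.00). The atrial genes Sln, Myl7 and Myl4 lie below untreated on day 3 and above it later (Sln -2.92, 3.64 and 3.49). Adipoq is higher on each later array (0.98, 3.06 and 4.42).

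Natriuretic peptides and the slow myosin were high from day 3 through day 60. Nppa, the atrial natriuretic peptide, had 5781 untreated, 28354 on day 3, 28877 on day 30 and 26763 on day 60, and Nppb, the B-type peptide, had 3704, 14070, 11850 and 11540. Myh7, the slow beta myosin heavy chain, had 1011, 6739, 5735 and 5148, changes of 2.70, 2.47 and 2.32. Its adult partner Myh6 had 20829, 17443, 21313 and 12351 with a change of -0.75 on day 60. Ccn2, connective tissue growth factor, had 712.6, 3599, 2844 and 5381. The 3 ligated arrays lay close together for Nppa and Myh7, with all of them above the untreated array. On day 60 the Nppa signal of 26763 was the highest of the whole array, and whether a ceiling of the signal held these values together was not tested.

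Not all stress genes did this. Ankrd1, a stretch-responsive sarcomere protein gene, had 11612, 17587, 19800 and 22103, changes of 0.60, 0.77 and 0.93, and Acta1, skeletal actin, had 8451, 9295, 13897 and 8846. Of the 21 measured genes of the fetal and stress programme 8, 10 and 10 lay at least 2-fold above untreated on days 3, 30 and 60 and 2, 0 and 0 below. Among all genes 5.01%, 3.09% and 4.56% lay above and 2.66%, 2.52% and 2.85% below. The sarcomere core, 19 genes, had 0 genes past 2-fold on any day, with medians of -0.26, 0.03 and -0.16. Calcium handling and ion channel genes were lower, with medians of -0.79, -0.48 and -0.54. Ryr2, the calcium release channel, had 4229, 2174, 2654 and 1883, and both its probe sets were below untreated on all 3 days, with changes of -1.44 to -0.67.

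Atrial genes took an order of their own: below untreated on day 3, then far above. Sln, sarcolipin, which inhibits the calcium pump mainly in atrial muscle, had 234.6 untreated, 6.1 on day 3, 3254 on day 30 and 2932 on day 60, changes of -2.92, 3.64 and 3.49. Myl7, the atrial regulatory light chain, had 532.5, 97.6, 3899 and 2967, and Myl4, the atrial essential light chain, had 759.1, 247.5, 3279 and 5213. The 3 genes had the same low day 3 array and the same 2 high arrays. Sln and Myl7 were read by 1 probe set each, and a second, dimmer probe set of Myl4 did not follow, with 0.81, -0.36 and 0.30. In the C57BL/6 arrays Sln had 251.4, 858.4, 3078 and 6.7 from untreated to day 60, and Myl7 442.3, 1078, 3372 and 11.9, so that the array with almost none was that of day 60 there. How much atrial muscle a dissected ventricle carried was not recorded in the labels, and its part in these values was not tested. Of the 8 atrial and conduction markers measured, 3, 0 and 1 lay at least 2-fold below untreated on days 3, 30 and 60, and 3, 5 and 5 above. The shares of all genes were 2.66%, 2.52% and 2.85% below and 5.01%, 3.09% and 4.56% above. Dkk3 and Nppa were above untreated on all 3 days, also on day 3, and Bmp10 had 113.6, 175.8, 139.2 and 21.9. Over 10 genes the marker list summed to 13475, 44375, 48395 and 48381, with Nppa and Clu as its brightest members.

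Several genes of fat cells were highest on day 60. Adipoq, adiponectin, secreted by fat cells, had 18.3 untreated, 63.6 on day 3, 361.3 on day 30 and 972.5 on day 60. Car3, a carbonic anhydrase abundant in fat and slow muscle, had 149.6, 132, 1022 and 2702, and its second probe set gave 0.80, 1.75 and 3.22. Scd1, the desaturase that makes monounsaturated fatty acids, had 335.1, 435.8, 567.4 and 2178, with both probe sets 2.36 to 2.60 above untreated on day 60. Hp, haptoglobin, made by liver and fat, had 29.3, 51.2, 180.7 and 300.

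Other fat cell markers were not in step with these. Fabp4, which endothelium also expresses, had 5841, 4258, 8033 and 6726, and Retn had 197.4, 353.8, 240.2 and 330.2. Cidea had 409.6, 421, 724 and 489.5 and was highest on day 30. Lep, Cidec and Ucp1 stayed below 121 in all 4 arrays. The summed signal of the 7 fat cell markers was 6562, 5166, 9455 and 8648, most of it Fabp4. The part of attached fat tissue in Adipoq, Car3 and Scd1 was not tested.

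Genes for burning fatty acids were lower on days 3 and 60 and close to untreated on day 30. Of 27 measured genes of fatty acid uptake and oxidation 24 lay below untreated on day 3, 21 on day 30 and 23 on day 60, 5, 0 and 7 of them at least 2-fold, with medians of -0.68, -0.20 and -0.76. Among all genes 2.66%, 2.52% and 2.85% lay at least 2-fold below on these days. Acaa2, the mitochondrial thiolase of the last step of beta-oxidation, had 7754 untreated, 3098 on day 3, 5796 on day 30 and 3235 on day 60. Its 3 probe sets changed by -1.84 to -1.32 on day 3, by -0.76 to -0.36 on day 30 and by -1.84 to -1.25 on day 60. Slc25a20, the carnitine carrier of the inner membrane, had 1189, 495.5, 1314 and 521.9, with both probe sets at -1.06 or lower on days 3 and 60 and at -0.65 and 0.14 on day 30.

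Cpt2, the inner membrane carnitine transferase, had 1724, 854.9, 1045 and 629.3, but its second probe set gave 0.08 on day 3 and -0.11 on day 60. Mlycd, which removes the inhibitor malonyl-CoA, had 697, 380.2, 525.7 and 238.7. Day 30 lay above day 3 for 26 of the 27 genes and day 60 lay above day 30 for 3. Both of these steps use the day 30 array.

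The respiratory chain and the citric acid cycle showed the same shape at a smaller size. Of 51 genes 48 lay below untreated on day 3, 36 on day 30 and 50 on day 60, with medians of -0.61, -0.17 and -0.54 and only 3, 0 and 0 genes at least 2-fold below. The shares of all genes at least 2-fold below were 2.66%, 2.52% and 2.85%. Uqcrc2, a core protein of complex III, had 6095, 2938, 6367 and 3128, with a second probe set at -0.30, 0.06 and -0.23. Ndufs1, the largest subunit of complex I, had 4544, 1884, 3490 and 2513. Dlst, of the 2-oxoglutarate dehydrogenase complex, had 2328, 908.7, 1755 and 1420. Glycolysis, 20 genes, had medians of -0.45, -0.07 and -0.13, and Eno3, the muscle enolase, had 10144, 5168, 7124 and 5835.

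Ventricular muscle markers moved in part with these metabolic genes. All 10 were higher on day 30 than on day 3 and all 10 lower on day 60 than on day 30, with medians of 0.25 and -0.46 for these steps. Against untreated, 5 of the 10 markers lay above on day 3 and 5 below, with a median of -0.02. The respiratory chain and citric acid cycle list stood at -0.61 on that day. The part of muscle content in the metabolic values was not tested.

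**Figure D5:**
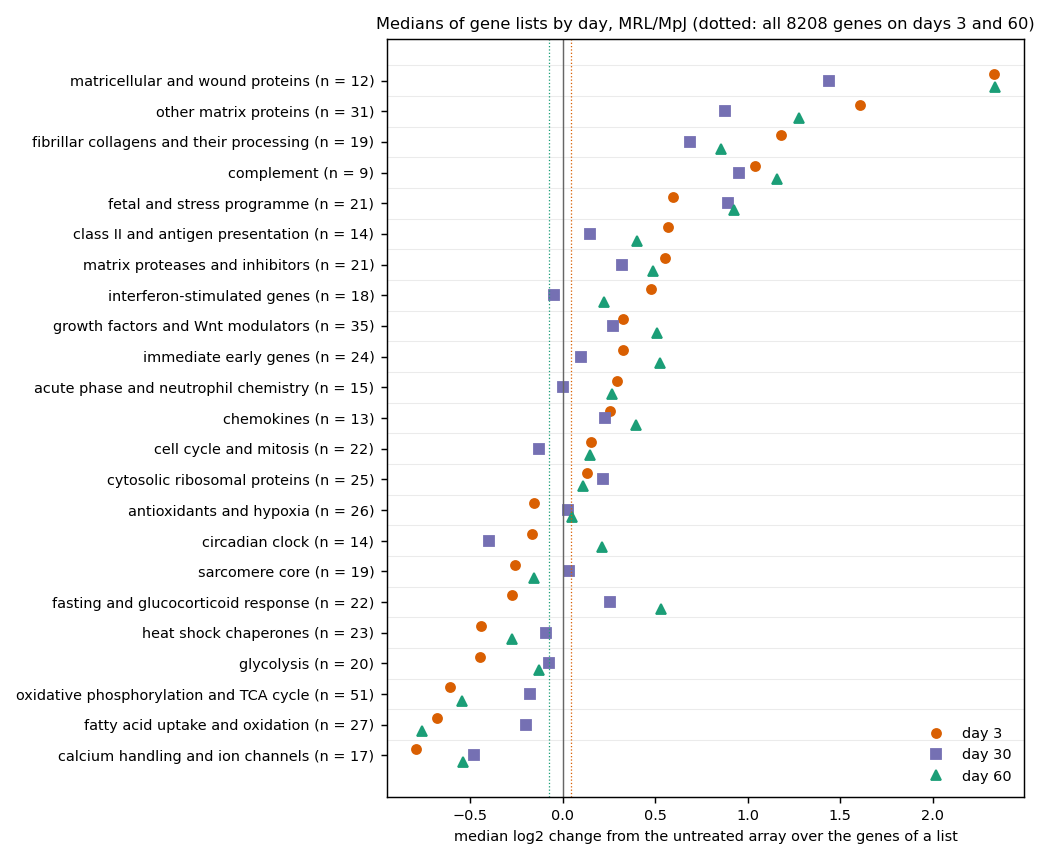
Median log2 change from untreated over the measured genes of 23 lists (vertical axis, with the number of genes) on day 3 (circles), day 30 (squares) and day 60 (triangles), with dotted lines at the medians of all 8208 genes on days 3 and 60. Matricellular proteins are at the top (2.33, 1.44 and 2.34), and fatty acid genes (-0.68, -0.20 and -0.76) and calcium handling genes (-0.79, -0.48 and -0.54) at the bottom.

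Of the genes lower on day 3 alone, 5 had all their probe sets at least 1.5-fold below. Pim3, a survival kinase, had 1018 untreated, 207.2 on day 3, 676.5 on day 30 and 1055 on day 60, with probe sets at -2.15 and -0.76 on day 3. Lpin1, a phosphatidate phosphatase that also co-activates fatty acid genes, had 914.5, 381.3, 804.2 and 656.6, and Acad11, an acyl-CoA dehydrogenase, had 992.9, 413.9, 720.5 and 704.8. Hspa9, the mitochondrial HSP70, had 2758, 1350, 2772 and 2146, with 3 probe sets at -2.01 to -0.63 on day 3. Pdk4, the kinase that shuts off pyruvate oxidation, had 2324, 596.9, 3103 and 2364, and the clock repressor Nr1d1 was lowest on day 3 with 511, 46.1, 318.7 and 564.7, each through 1 probe set. Nudt4, a diphosphoinositol phosphatase, had 1506, 537.7, 1111 and 999.6. Nr1d1 transcripts swing through the day, and the hour of harvest is not on the labels. Gys1, the muscle glycogen synthase, and Bik, a cell death gene, were lowest on day 3 but not lower on that day alone. Gys1 had 626.7, 246.7, 435.4 and 315.7, and Bik had 167.9, 23.2, 112.3 and 74.2 with both probe sets below untreated on all 3 days.

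Among genes whose probe sets all lay at least 2-fold below untreated, Hspa1b showed the largest change on each of the 3 days. Hspa1b, an inducible HSP70 that refolds damaged proteins, had a signal of 1894 untreated, 175.3 on day 3, 129.7 on day 30 and 478 on day 60, and its 3 probe sets changed by -3.24 to -2.87 on day 3, by -3.60 to -2.89 on day 30 and by -2.08 to -1.92 on day 60. Hspa1a, its near-identical neighbour, had 770.5, 96.3, 86.1 and 233.6. Probe sets for these 2 genes may read each other's transcripts, so they count as 1 observation. Hsph1, the partner HSP110, had 806, 269, 357.5 and 427.8, and Bag3, their co-chaperone, had 1839, 552.1, 1063 and 1370. The untreated array was the highest of the 4 for all of these genes. In C57BL/6 the untreated array was also the highest for Hspa1b, with 773.4 untreated, 175.2 on day 3, 84.8 on day 30 and 226.4 on day 60.

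Heat shock genes are switched on within minutes by stress, through the factor HSF1 and its inverted GAA repeats. The 250 bases before the start of both HSP70 genes are shown to make visible how alike these genes are and where such a repeat lies (RefSeq, GRCm38.p6, minus strand, chr17:34972157-34972406 for Hspa1a and chr17:34959239-34959488 for Hspa1b). Capitals mark the match to TTCNNGAA or GAANNTTC, searched on both strands.
Hspa1a: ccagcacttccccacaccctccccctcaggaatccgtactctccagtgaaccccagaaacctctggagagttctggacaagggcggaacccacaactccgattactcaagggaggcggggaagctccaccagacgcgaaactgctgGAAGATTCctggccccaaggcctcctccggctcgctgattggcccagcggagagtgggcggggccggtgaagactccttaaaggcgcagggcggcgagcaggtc
Hspa1b: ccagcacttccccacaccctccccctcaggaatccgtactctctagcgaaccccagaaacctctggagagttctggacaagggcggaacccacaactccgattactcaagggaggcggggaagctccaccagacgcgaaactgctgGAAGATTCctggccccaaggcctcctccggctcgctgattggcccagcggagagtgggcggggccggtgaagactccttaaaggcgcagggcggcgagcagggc

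The sequences differ at 3 of 250 positions, and each holds 1 match, which begins 104 bases before the start. Of the 23 measured heat shock and chaperone genes 18 had a promoter in the RefSeq table, and 8 of these held the motif in that window (Hspa1a, Hspa1b, Hsph1, Hspb1, Dnaja1, Dnajb4, Hspd1 and Hspe1). The motif was found in 14.5% of all 27025 genes and 12.8% of all 32851 promoters of that length. A match is a run of letters and not a measured binding site. The whole list of 23 genes moved less than Hspa1b: its median was -0.44, -0.09 and -0.28, with 5, 3 and 2 genes at least 2-fold below on days 3, 30 and 60 and 0 above, beside 2.66%, 2.52% and 2.85% of all genes below. Hspa1a and Hspa1b are both in each of these counts, and on day 60 they are the only members.

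Other genes were below untreated on all 3 days. Ces1d, a carboxylesterase that splits stored lipid, had 596.5, 121.7, 189.9 and 139.1, and its second probe set changed by -0.95, -0.93 and -1.46. Ift81, a protein of cilia transport, had 2181, 1044, 998.9 and 656.8, and both probe sets changed by -1.69 to -1.01 on all days. In C57BL/6 Ift81 lay between 592.3 and 651.1 in all 4 arrays, so the untreated MRL/MpJ array was the highest of the 8, and with the mean of both untreated arrays as baseline it no longer passed 2-fold on any day. Alas2, the heme synthesis enzyme of red cell precursors, had 504.9, 32.5, 14.2 and 71.4. The red blood cell markers summed to 696.8, 183, 94.5 and 199.3, with Alas2 as most of the untreated sum. The other 2 markers on the array stayed below 121 and differed in their course. Slc4a1 had 95.1, 99.4, 45.1 and 34.4, and Hba-a1 had 96.8, 51.1, 35.2 and 93.5. The part of blood left in the untreated sample was not tested.

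Of the genes lower on days 30 and 60 but not day 3, the 5 with the largest difference, Tlx2, Cdh23, Lsm7, Hoxc9 and Tacc3, were each read by 1 probe set, with Tlx2 at 380.8 untreated, 311.3 on day 3, 53.9 on day 30 and 71.9 on day 60. On day 30 alone, Oscar had 139.6, 224.1, 54.4 and 93, Pcbp3 had 181.1, 217.4, 74.5 and 149.8, and Ctnnal1 had 240.3, 181.2, 58.8 and 188.5. These 3 day 30 signals all lay below 121.

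Cell division genes were dim and did not move as 1 group. Of 48 listed genes 22 were measured, and 1, 0 and 1 lay at least 2-fold above untreated on days 3, 30 and 60, against 1, 3 and 0 below. Over all genes the shares were 5.01%, 3.09% and 4.56% above and 2.66%, 2.52% and 2.85% below, and 1 of 22 is near these shares. Cdk1, the kinase that drives mitosis, had 39.9 untreated, 138.2 on day 3, 82.8 on day 30 and 115.1 on day 60. Top2a, which untangles DNA in dividing cells, had 106.2, 112.4, 11.2 and 150.5, and Rrm2, which makes DNA precursors, had 81.7, 125.5, 11.1 and 119.8. Both were low on day 30 alone. Cdca3, a mitotic gene with 2 probe sets, had 243.7, 303.7, 73.7 and 182.1, with both at least 2-fold lower on day 30 than on day 3.

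A last group was set apart by day 60. Txnip, an inhibitor of thioredoxin and glucose uptake, had 1668 untreated, 2019 on day 3, 2128 on day 30 and 4076 on day 60, with probe sets 1.26 and 1.27 above untreated on day 60. Cebpd, a transcription factor of the acute phase and of fat cell formation, had 384.2, 391.6, 470.8 and 857.9, and F2r, the thrombin receptor PAR1, had 546.9, 766.6, 683.7 and 1174. Dbp, an output gene of the clock, had 341.8, 236.1, 351.2 and 773.3, with both probe sets at 1.09 and 1.11 on day 60. Tsc22d3, a glucocorticoid target, had 607.8, 983.9, 633.3 and 1775, but its 3 probe sets ranged from 0.01 to 1.5 on day 60. Over the 22 measured genes of the fasting and glucocorticoid response 2, 2 and 6 lay at least 2-fold above untreated on days 3, 30 and 60 and 2, 1 and 0 below, with medians of -0.27, 0.25 and 0.53. Over all genes 5.01%, 3.09% and 4.56% lay above and 2.66%, 2.52% and 2.85% below.

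On the lower side of day 60 stood Vegfa, the main growth factor of blood vessels, with 813.1, 879.2, 569.9 and 331.2 and probe sets at -1.23 and -0.72 on day 60. Prkce, the protein kinase C of cardiac preconditioning, had 306.8, 266.2, 204.7 and 126.2, and Lama5, a laminin chain of basement membranes, had 856.3, 706, 585.7 and 380.3. Car4, a carbonic anhydrase of capillary walls, had 302.1, 207.9, 230.1 and 132, and Tesc had 1228, 875.1, 1145 and 562.8. Endothelial markers as a list changed less than Vegfa and Car4 on day 60, with a median of -0.16 and 4 of 9 above untreated and 5 below. The lowest were Cdh5, Kdr and Egfl7 at -0.55, -0.43 and -0.42. Only Vwf passed 2-fold, above untreated on day 60, with 173.6, 165, 199.4 and 620.7. That is 1 of 9, beside 4.56% of all genes above and 2.85% below. The markers summed to 5164 untreated, 4630 on day 3, 4713 on day 30 and 4914 on day 60, and the last sum includes the high Vwf signal. Hopx, a homeodomain protein of heart muscle, was lower on days 3 and 60, with 9378, 2554, 7616 and 4149 and probe sets at -1.17 and -1.06 on day 60.

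Some of these genes stood at different levels in the 2 strains on the same day. The 5 given here were chosen after their values were seen, and the strains were not tested against each other. Postn had 6776 in MRL/MpJ and 1659 in C57BL/6 on day 3, 3694 and 2397 on day 30, and 3285 and 3877 on day 60. Sfrp2 had 3143 and 893.6 on day 3, 629.7 and 1708 on day 30, and 2085 and 2102 on day 60. Mfap4 had 943.1 and 84.5 on day 3, 39.7 and 502.5 on day 30, and 653.1 and 446.7 on day 60. Myh7 had 6739 in MRL/MpJ and 1248 in C57BL/6 on day 3, 5735 and 7273 on day 30, and 5148 and 5680 on day 60. For these 4 genes the day 60 values of the strains lay closer together on the log2 scale than those of day 3. Acaa2 had 3098 and 6199 on day 3, 5796 and 3639 on day 30, and 3235 and 4724 on day 60. With 1 array in each cell of the design, array and strain cannot be told apart at any of these times.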

How the data were processed

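The deposited values are MAS5 signal intensities on a linear scale, 22626 probe sets per array, per the submitters' processing notes; the authors' scaling was kept, and log2 values and folds were computed here from the deposited signals. Probe sets with exactly 1 symbol in the platform annotation (20380 of 22626, 691 with several and 1555 with none) covered 12393 genes. The filter kept 12183 probe sets, with a signal of 121 or more on 2 or more arrays of the 8, and a gene's value is that of its brightest kept probe set (8208 genes). Precision is limited by 1 array per time point, and signals near the offset of 28.6 are compressed. No p-value was computed. The step was tested on simulated data. Members and lists were chosen with earlier results of these data known. Named were, for each day and direction, up to 5 genes whose probe sets all passed 2-fold, up to 5 genes per time pattern, members of the gene lists and cell type markers; the 2-day patterns and their genes were chosen after their values were seen. Alternatives varied the offset, the filter, the probe set rule, quantile normalization and the untreated baseline. Python 3.11.15, numpy 2.4.6 and pandas 2.3.3 were used.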

Additional observations from a re-analysis of the deposited data

Results flagged for a closer look

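Among the genes that the naming rule covers, some changed at least 2-fold in opposite directions in the 2 strains on the same day. The difference between the strains was not tested, since each value is 1 array against 1. Values are log2 changes from untreated, MRL/MpJ first.

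The atrial genes Sln, Myl7 and Myl4 moved together on their brightest probe sets, while a second probe set of Myl4 did not follow. Other atrial markers differed: in MRL/MpJ Nppa and Dkk3 lay above untreated on all 3 days, and Bmp10 changed by 0.52 on day 3 and -1.49 on day 60. On day 3 Sln changed by -2.92 in MRL/MpJ and 1.66 in C57BL/6, Myl7 by -2.15 and 1.23, and Myl4 by -1.51 and 1.41. On day 60 Sln changed by 3.49 in MRL/MpJ and -2.99 in C57BL/6, Myl7 by 2.42 and -3.54, and Myl4 by 2.73 and -1.49.

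The other genes are single values, each through the brightest probe set, several of them near the background. On day 3 Carns1 changed by -1.63 in MRL/MpJ and 1.71 in C57BL/6, Frs3 by -1.77 and 2.14, and Lalba by 1.44 and -1.47. On day 30 Cdh23 changed by -1.78 and 1.03, Lsm7 by -1.60 and 1.63, and Tlx2 by -2.31 and 1.56. On day 60 Carns1 changed by -1.64 and 1.10, Frs3 by -2.61 and 1.78, Mylpf by -1.02 and 1.91, and Zdhhc6 by -1.47 and 1.35.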

How the results depend on the processing

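Limits first: 1 array per time point gives no spread, 1 untreated array serves all 3 days, and signals near the offset have compressed differences. The counts depended most on the offset and the filter. With the offset at the 5th percentile, genes at least 2-fold lower numbered 313 on day 30 (207 as reported) and 202 for day 60 against day 30 (119), held lower genes 25 (15) and late lower genes 42 (25). With the offset at the median all counts shrank: 188 higher and 88 lower on day 3, 99 and 33 on day 30, 185 and 63 on day 60, 41 and 103 for day 30 against day 3, and 44 and 18 for day 60 against day 30. The patterns then held 53 higher and 7 lower genes on all 3 days, 26 and 33 early, and 13 and 4 late. Without a filter 12393 genes entered, with 675 higher and 369 lower on day 3, 449 and 411 on day 30, 564 and 449 on day 60, 307 and 747 for day 30 against day 3, and 347 and 317 for day 60 against day 30. The patterns then had 36 held lower, 172 early higher, 132 early lower, 46 late higher and 57 late lower genes. Quantile normalization left 49 early higher genes (75 as reported). Ern1 on day 3 changed sign without the filter, to 0.03, where another of its probe sets was used. The counts of single-day patterns moved too: genes higher on day 30 alone numbered 58 without a filter, 3 with the offset at the median and 8 with both untreated arrays (17 as reported), and genes lower on day 60 alone 162 without a filter and 14 with the offset at the median (79). Genes lower on day 30 alone numbered 132 with the 5th percentile offset, 155 without a filter and 11 with the offset at the median (87), and genes higher on day 60 alone 87 without a filter and 15 with the offset at the median (36). With the filter on the MRL/MpJ arrays or the mean of probe sets, the day counts against untreated or the array before and the 10 pattern counts stayed within 1.5 times.

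Which genes made up a pattern moved more than its size: with both untreated arrays as baseline the held higher pattern had 118 genes, 85 of them shared with the 128 reported, and the held lower pattern shared 7 of 15. Early higher genes shared 27 of 75, late higher 16 of 22, day 30 alone higher 2 of 17 and day 60 alone higher 16 of 36; early lower shared 48 of 77, late lower 10 of 25, day 30 alone lower 65 of 87 and day 60 alone lower 56 of 79. Of 4776 values of 229 named genes under the alternatives, 4536 kept their side of the 2-fold limit and their direction, 192 no longer passed it, 47 newly passed it and 1 changed sign. Of the 192, 98 came with the offset at the median and 62 with both untreated arrays. No paired analysis was possible because each group has 1 array.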
